A study of Mus musculus with 4 samples.

Results

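Chemokine receptors and the sphingosine-1-phosphate (S1P) receptor S1PR1 are the surface receptors with which blood leukocytes read where to go. The 10 genes described here, Ccr7, Ccr2, Ccr6, Cxcr2, Cxcr3, Cxcr4, Cxcr5, Cxcr6, Cx3cr1 and S1pr1, were chosen by name out of the 32287 features listed in the count tables. All 10 were listed in each of the 4 libraries. Their levels were read in 6 classes of blood cells that were gated on other genes, so no receptor helped to define a class.

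As background, chemokine receptors and S1PR1 couple to inhibitory G proteins, and their ligands form gradients in tissues that steer the cell. CCR7 and CXCR5 bring lymphocytes into the T cell zone and the follicles of lymphoid organs, while S1PR1 lets them leave again into lymph and blood, where S1P is abundant. CXCR3, CXCR6, CCR2, CCR6 and CX3CR1 serve entry into inflamed or barrier tissue and patrolling of vessels. CXCR2 and CXCR4 act in opposite directions on neutrophils, CXCR2 drawing them into blood and CXCR4 holding or returning them to bone marrow.

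The cells were peripheral blood leukocytes of C57BL/6J mice, 10 weeks old, inoculated with acute lymphoblastic leukaemia and treated with dasatinib, an inhibitor of ABL and SRC family kinases. Blood was drawn 1 week after treatment began, when every mouse was in remission, and cryopreserved. Treatment went on for 4 further weeks, and by day 100 the mice were classed as Cured (6 mice, still in remission) or Relapsed (6 mice). Cells of 3 mice were thawed, sorted for live cells and pooled per library, which gave 2 Cured and 2 Relapsed libraries made with the 10x Genomics 5′ chemistry. All groups received the leukaemia and the drug, so the samples hold no untreated control. The study set out to find features that separate mice that relapse from mice that do not. A pool cannot be split back into mice, so no p-value below measures the spread between mice. They rest on the spread between pools, partly shared among genes by the fits.

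The libraries held 3631 to 4383 barcodes and 7184045 to 10840397 UMIs (unique molecular identifiers, 1 per captured RNA molecule). After removal of barcodes with under 200 genes or over 10% mitochondrial UMIs, 15439 cells remained, and 14484 of them fell into the 6 classes. These were 11315 B cells, 150 CD4 T cells, 876 CD8 T cells, 778 NK cells, 326 monocytes and 1039 neutrophils. The names stand for marker gates: Cd79a had a UMI in 99.1% of the B cells, Csf1r in 79.1% of the monocytes and S100a8 in 98.8% of the neutrophils. S100a8 also had a UMI in 3.98% to 8.28% of the cells of each other class, beside 109258 UMIs in neutrophils. Cxcr2 had 984 UMIs in neutrophils, so the S100a8 share is no yardstick for the rarer receptors. Among the B cell markers in CD4 T cells, Ighm had a UMI in 44.0% and each of the others in 3.33% of cells or fewer. Ighm was also found in 38.9% of CD8 T cells, 30.1% of monocytes, 12.6% of neutrophils and 11.6% of NK cells. Relapsed replicate 1 stood apart: it held 279 of the 356 barcodes with under 200 genes, 22 of the 26 class cells with over 5% haemoglobin UMIs and the lowest median depth (1813.5 UMIs per kept cell against 2051 to 2355). Libraries shared 20 to 29 barcodes per pair, and no shared barcode had identical counts.

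Levels are in CPM, the counts of a gene scaled to a fixed total of the class's UMIs in a library, and are given as the mean ± SD over the 4 libraries unless groups are named. A level is thus a share of the class's RNA and not a count of receptors per cell. Each pair of classes was tested over all genes with the quasi-likelihood test of edgeR, with the library as a block and Benjamini-Hochberg adjustment at 0.05. Of the 150 tests (10 genes in every pair of classes) 94 passed, against 48.6% of the tests of all 6078 genes in the same pairs. TMM scaling, which edgeR uses, moved the comparison of a class with B cells by -0.54 (NK) to 0.20 (neutrophil) on the log2 scale. Without it 89 of the 94 calls kept their direction and passed.

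The receptors that passed were counted for each pair of classes beside the share of all genes that passed in it. B cells against CD4 T, CD8 T and NK cells gave 8, 9 and 9 of 10 receptors, beside 29.8%, 50.6% and 51.9% of all genes. B cells against monocytes and neutrophils gave 6 and 8 (60.6% and 76.2%). CD4 T cells gave 4 against NK cells (20%), 7 against monocytes (37.9%) and 6 against neutrophils (59.3%), and CD8 T cells gave 7 (34.8%), 8 (55.6%) and 8 (73.8%). NK cells gave 5 against monocytes (45.1%) and 5 against neutrophils (69.1%), and monocytes gave 4 against neutrophils (56.8%). Between CD4 and CD8 T cells 0 receptors passed edgeR's test (7.34% of all genes), and 2, Cxcr4 and Cx3cr1, had an unadjusted p under 0.05. By DESeq2 0 passed there. Ccr6 was at 0 UMIs in every class but B cells, so its 5 passes came through that class alone. Cxcr2 and Cxcr5 also met edgeR's count filter through 1 class only, neutrophils for Cxcr2 and B cells for Cxcr5.

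**Figure D1:**
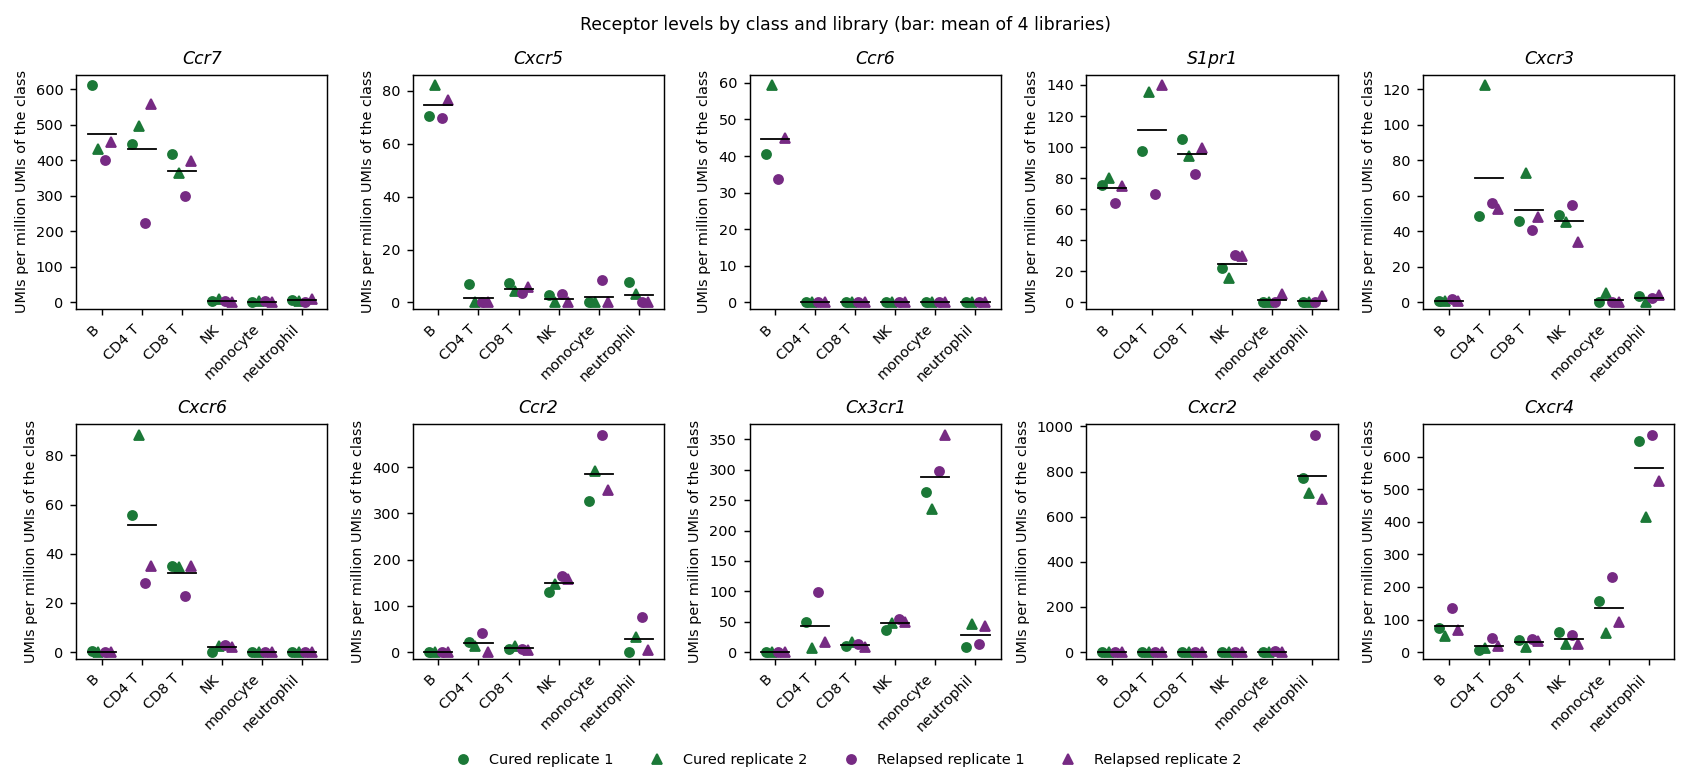
CPM of the class (y axis, linear) for each receptor in 6 gated classes (x axis). Each point is a library (green Cured, purple Relapsed; circle replicate 1, triangle replicate 2) and each bar the mean of 4 libraries. Ccr6 points are above 0 in B cells alone, and Cxcr2 stands at 676 to 962 in neutrophils and at 4.19 or less in every other class.

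Among the receptors for lymphoid tissue, Ccr7 was high in all 3 lymphocyte classes with antigen receptors and nearly absent from the others. In B cells it stood at 611 and 432 in the Cured libraries and at 401 and 450 in the Relapsed libraries (mean 474 ± 93.6). CD4 T cells gave 447, 495, 224 and 559 in the same order (431 ± 145), and the low value, from Relapsed replicate 1, rests on 16 UMIs. CD8 T cells gave 417, 363, 300 and 399 (370 ± 51.4). The 3 classes overlapped library by library. B cells exceeded CD4 T cells by 0.43 (log2, SE 0.13, adjusted p = 0.00502), but the difference was 0.15 without TMM (adjusted p = 0.502) and 0.13 with DESeq2 (adjusted p = 0.781), so their order depended on the scaling. It was 0.27 without Cured replicate 1 (adjusted p = 0.227) and 0.22 without Relapsed replicate 1 (adjusted p = 0.258). CD8 T cells exceeded neutrophils, the next class, by 6.15 (SE 0.28, adjusted p = 1.08e-61).

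A Ccr7 UMI was found in 56.4% of B cells, 57.3% of CD4 T cells and 65.0% of CD8 T cells. The median depths differed, at 2124, 2729.5 and 3602.5 UMIs per cell. At a fixed 1000 UMIs per cell, with shallower cells left out (566 of 11315 B cells), the shares were 35.5%, 33.3% and 27.2%. The order of these shares thus turned around once depth was equal. In NK cells, monocytes and neutrophils 0.771%, 0.920% and 0.577% of cells carried a Ccr7 UMI, never more than 1 UMI per cell. Ccr7 lies on chromosome 11 (GRCm38, chr11:99144196-99155077, minus strand).

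Cxcr5, the receptor for the follicular chemokine CXCL13, was a B cell gene. It gave 70.5, 82.1, 69.6 and 76.5 CPM in the B cells of Cured replicates 1 and 2 and Relapsed replicates 1 and 2 (74.7 ± 5.80), the narrowest relative spread of any receptor in B cells. CD8 T cells came next at 5.23 ± 1.63, lower by 3.60 on the log2 scale (SE 0.24). Cxcr5 met the count filter through B cells alone, so a test of that class against another is no independent support. Among CD4 T cells, whose follicular helper subset is known for CXCR5, 1 cell of 150 had a UMI. The exons of Cxcr5 (chr9:44511787-44561877, minus strand) overlap those of Bcl9l on the other strand and those of no gene on the same strand. Counting by strand keeps such a pair apart, and the deposited counts do not say whether strand was used.

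Ccr6, the receptor for CCL20, was detected in B cells and in no other of the 6 classes. B cells gave 40.5, 59.3, 33.8 and 45.02 CPM (44.6 ± 10.8) and 1175 UMIs in 1021 cells. All other classes were at 0 UMIs: 0 of 150 CD4 T cells, which allows a share of cells with a UMI of up to 2.00%, 0 of 876 CD8 T cells (up to 0.342%), 0 of 778 NK cells (up to 0.386%), 0 of 326 monocytes (up to 0.920%) and 0 of 1039 neutrophils (up to 0.289%). Set against a floor of 3 UMIs over all libraries, the B cell level was at least 6.47-fold higher than in CD4 T cells and at least 50.7-fold higher than in CD8 T cells. CCR6 also marks Th17 cells, and with 150 CD4 T cells a small subset was not detectable at this depth. The limits are 3 counts over the number of cells and bound detection, not expression, since Ccr6 had a UMI in 9.02% of B cells. Such floors and all intervals cover counting error only. Ccr6 lies at chr17:8236043-8257141 on the plus strand.

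S1pr1, the receptor for egress, was shared by B and T cells. CD4 T cells gave 97.8, 136, 70.1 and 140 CPM (111 ± 33.1), CD8 T cells 105, 94.3, 82.9 and 99.6 (95.5 ± 9.52), and B cells 75.3, 80.3, 64.0 and 75.1 (73.7 ± 6.89). CD8 T cells exceeded B cells by 0.54 (log2, SE 0.12, adjusted p = 1.81e-05) and by 0.37 without TMM (adjusted p = 0.00343), with every CD8 library above every B cell library. The CD4 and CD8 T cells overlapped, and the sign of their difference turned with the scaling (-0.24 with TMM, adjusted p = 0.662; 0.21 without, adjusted p = 0.812). NK cells stood at 24.5 ± 6.81, lower than B cells by 2.12 (log2, SE 0.21, adjusted p = 4.25e-20). Monocytes (2 UMIs) and neutrophils (1 UMI) were close to 0. S1pr1 lies at chr3:115710433-115715072 on the minus strand.

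The receptors for inflamed tissue split the lymphocytes another way. Cxcr3, the receptor for the interferon-induced chemokines CXCL9 and CXCL10, was found in T and NK cells. CD4 T cells gave 48.9, 122, 56.1 and 52.4 CPM (69.9 ± 34.97, from 32 UMIs in 15 of 150 cells), where the high value is Cured replicate 2. CD8 T cells gave 45.9, 72.6, 40.6 and 48.4 (51.9 ± 14.2) and NK cells 49.4, 45.4, 54.6 and 34.3 (45.9 ± 8.63). CD8 T cells were above NK cells by 0.88 (log2, SE 0.25, adjusted p = 0.00196) with TMM and by 0.17 without it (adjusted p = 0.564), and their libraries overlapped. NK cells exceeded neutrophils by 3.48 (log2, SE 0.64, adjusted p = 3.16e-07). B cells, at 1.05 ± 0.403, had a Cxcr3 UMI in 0.168% of cells. Cxcr3 lies at chrX:101731535-101734269 on the minus strand.

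The 250 bases upstream of the RefSeq start of Cxcr3 (GRCm38.p6, chrX:101734148-101734397, minus strand) are shown because Cxcr3 parted cell states in both NK and CD8 T cells. Of 4 motif strings searched, they hold 1 match, to the ETS string GAGGAAGT that PU.1 is known to bind. Capitals mark the match, which reads as its reverse complement on the gene's strand:
Cxcr3: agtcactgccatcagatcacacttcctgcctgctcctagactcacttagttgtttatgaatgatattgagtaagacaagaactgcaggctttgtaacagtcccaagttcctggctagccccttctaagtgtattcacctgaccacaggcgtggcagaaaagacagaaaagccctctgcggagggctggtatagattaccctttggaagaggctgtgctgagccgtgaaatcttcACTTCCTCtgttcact
The string occurred on either strand in 2.44% of all 32851 windows of that length. A match describes the letters and shows no binding. In GENCODE the gene reaches to chrX:101734269, so part of this window, the match included, lies inside the gene as annotated there.

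Cxcr6, the receptor for CXCL16 and a gene of tissue-resident and effector T cells, was found in CD4 and CD8 T cells. CD4 T cells gave 55.9, 88.2, 28.0 and 34.9 CPM (51.8 ± 27.0, from 25 UMIs) and CD8 T cells 35.1, 34.7, 22.9 and 35.2 (32.0 ± 6.02, from 108 UMIs). The 2 classes overlapped and their difference did not pass (0.37, SE 0.39, adjusted p = 0.701). CD8 T cells exceeded NK cells, which are also cytotoxic lymphocytes, by 4.61 (log2, SE 0.56, adjusted p = 1.42e-13), with 3 UMIs in 778 NK cells. Monocytes and neutrophils had 0 UMIs, and CD4 T cells were at least 21.3-fold and at least 24.3-fold higher by the floor of 3 UMIs. Cxcr6 lies at chr9:123806475-123811760 on the plus strand.

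In single cells, 10 of the 15 CD4 T cells with a Cxcr3 UMI also had a Cxcr6 UMI, of 16 cells with Cxcr6. Independent detection would put 1.60 cells in that overlap. Among CD8 T cells 16 cells had both, of 119 with Cxcr3 and 93 with Cxcr6, where 12.6 would be expected by independence. These are counts of cells from shared libraries and unequal depths, and no test was made on them. Each NK marker had a UMI in 2.00% (Klre1) to 24.7% (Nkg7) of the CD4 T cells. The part of NK-type cells in the CD4 T cell overlap was not tested. T cells with UMIs of neither or both of the CD4 and CD8 gate genes (343 cells, outside the 6 classes) had Cxcr3 at 76.0, Cxcr6 at 52.4 and S1pr1 at 126 CPM over all libraries.

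Of the receptors known from monocytes, Ccr2, which lets monocytes leave the bone marrow towards CCL2, was highest in that class. Monocytes gave 327 and 392 CPM in the Cured and 469 and 351 in the Relapsed libraries (385 ± 62.3). NK cells came second at 129, 147, 164 and 158 (149 ± 15.2), with a UMI in 21.9% of cells. Monocytes were higher than NK cells by 1.48 (log2, SE 0.19, adjusted p = 2.31e-08), and every monocyte library lay above every NK library. CD4 T cells (19.1 ± 17.6, 8 UMIs) and CD8 T cells (8.18 ± 4.14, 28 UMIs) were lower, and B cells had 6 UMIs in 11315 cells. Ccr2 lies at chr9:124101950-124113557 on the plus strand.

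The neutrophil class gave Ccr2 at 0, 33.4, 76.1 and 4.34 CPM, a spread that comes from 8 cells. In Relapsed replicate 1 3 cells held 33 of the 44 UMIs, and 1 of them held 20. Of the 8 cells, 7 carried at least 3 of the 8 monocyte markers, against 35 of the other 1031 neutrophils (3.39%). Their median depth was 5876 UMIs against 978. Whether they are monocytes, doublets or neutrophils was not tested.

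Cx3cr1, the fractalkine receptor of patrolling monocytes and cytotoxic lymphocytes, stood in monocytes at 264, 235, 297 and 357 CPM (288 ± 52.4). NK cells gave 35.7, 48.1, 54.6 and 50.3 (47.2 ± 8.10), lower by 2.73 on the log2 scale (SE 0.21, adjusted p = 3.23e-27). CD4 T cells ranged from 6.79 to 98.1 on 16 UMIs in 9 cells and did not differ from NK cells beyond their spread. The 9 NK markers summed to 611 to 1907 CPM in CD4 T cells (29673 to 33160 in NK cells), with the highest sum in Relapsed replicate 1, which was also the highest for Cx3cr1. The 8 monocyte markers summed to 0 to 34.9 CPM, with 5 of them, Csf1r among them, at 0. The part of NK-type cells in this level was not tested. Neutrophils (27.9 ± 20.01, from 32 UMIs in 17 of 1039 cells) were above CD8 T cells (12.5 ± 3.34) by 1.04 (log2, SE 0.39, adjusted p = 0.0131), although the libraries overlapped. Csf1r had a UMI in 12.0% of the neutrophils, and the part of monocyte-type cells in their Cx3cr1 level was not tested. B cells had 4 UMIs. The exons of Cx3cr1 (chr9:119901616-120069879, minus strand) overlap those of Gm33858 on the other strand and those of no gene on the same strand.

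Cxcr2, the receptor for CXCL1 and CXCL2, was the most class-restricted of the myeloid receptors. Neutrophils gave 773, 706, 962 and 676 CPM (779 ± 128), and a UMI was found in 58.2% of cells at a median depth of 978 UMIs. B cells, the next class, stood at 1.52 ± 0.594, lower by 9.11 on the log2 scale (SE 0.15). Their share of cells with a UMI was 0.283% at a median depth of 2124 UMIs, and 0 of 778 NK cells had one. Monocytes had 1 UMI in 326 cells. Cxcr2 met the count filter through neutrophils alone, so a test of that class against another is no independent support for the restriction. Cxcr2 lies at chr1:74153989-74161246 on the plus strand.

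The 250 bases upstream of Cxcr2 (GRCm38.p6, chr1:74153744-74153993, plus strand) are shown since no receptor was more restricted to 1 myeloid class. Neither GAGGAAGT nor TTGCNNAA, a string known for C/EBP factors of granulocytes, was found in them. The capitals mark the only match, to the T-box string AGGTGT on the other strand:
Cxcr2: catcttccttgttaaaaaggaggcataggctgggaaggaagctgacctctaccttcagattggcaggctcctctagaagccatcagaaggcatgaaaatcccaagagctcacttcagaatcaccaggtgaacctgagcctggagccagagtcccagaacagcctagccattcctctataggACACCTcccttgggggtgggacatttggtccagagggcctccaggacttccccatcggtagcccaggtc
Of all windows, 11.8% hold AGGTGT and 9.56% hold TTGCNNAA on either strand. Windows were found in RefSeq for 7 of the 10 genes, and the windows of Ccr2, Ccr6, Cxcr4, Cxcr6 and Cx3cr1 held none of these strings, nor the KLF string CCNCACCC (14.9% of all windows).

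Cxcr4, the receptor for CXCL12 that retains cells in bone marrow, was the one receptor found in every class in each library. Neutrophils gave 649, 415, 667 and 525 CPM (564 ± 118) and monocytes 158, 59.4, 230 and 93.5 (135 ± 75.4). B cells followed at 81.0 ± 37.5, NK cells at 40.3 ± 18.5, CD8 T cells at 31.2 ± 10.2 and CD4 T cells at 20.02 ± 15.3. The order of NK and CD8 T cells turned with the scaling (NK over CD8 T -0.36 with TMM, adjusted p = 0.306, and 0.36 without, adjusted p = 0.234). Neutrophils were above monocytes by 2.72 (log2, SE 0.15, adjusted p = 4.19e-42), with no overlap. Monocytes and B cells overlapped, with a difference of 0.28 (adjusted p = 0.119) that passed without TMM (0.67, adjusted p = 0.000303). B cells exceeded NK cells by 1.51 (log2, SE 0.19, adjusted p = 5.57e-13), although Cured replicate 2 in B cells lay below the highest NK libraries. Among neutrophils 271 cells had UMIs of both Cxcr2 and Cxcr4, of 605 and 468, where independent detection gives 272.5. Cxcr4 lies at chr1:128588199-128592293 on the minus strand.

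At least 1 of the 10 receptors had a UMI in 74.2% of B cells, 84.7% of CD4 T cells, 83.2% of CD8 T cells, 41.0% of NK cells, 76.4% of monocytes and 77.8% of neutrophils. The NK cells were the class in which these receptors were least often seen, at a median depth (1796.5 UMIs) above that of neutrophils. For each receptor the 3 genes with the most similar levels over the 24 sums of class and library were found by Pearson correlation of log2(CPM + 1) among 7082 genes, as a description. The points share libraries and classes. Ccr6 ran with Ell3, Il9r and Hs3st1 (r = 0.997 to 0.987), Cxcr2 with Arg2, Wfdc21 and Dhrs9 (0.990 to 0.988) and Cxcr6 with Bcl11b, Art2b and Tnfsf8 (0.975 to 0.963). Ccr7 ran with Slamf6, Pacsin1 and Gm8369 (0.968 to 0.939), Cxcr3 with Cd247, Cd96 and Tox (0.965 to 0.949) and S1pr1 with Snhg17, Ablim1 and Itgb3bp (0.935 to 0.929). Ccr2 ran with S1pr5, an S1P receptor of NK cells, Dbndd2 and Ahnak (0.914 to 0.905), and Cxcr4 with Mbnl2, Mcl1 and Tspan2 (0.923 to 0.922). Cx3cr1 ran with B2m, Sept9 and Itm2c (0.926 to 0.882) and Cxcr5 with Gga2, Gm30211 and Fcmr (0.904 to 0.873).

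Within classes, cells were split by the larger number of detected state markers, none of them a receptor studied here, and the states were compared within libraries. Of 40 tests (10 genes in 4 classes) 16 met edgeR's count filter and 7 passed.

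Monocytes split into 96 classical and 213 non-classical cells. All 3 receptors that could be tested differed, against 25.9% of all genes tested in that comparison. Of these, Ccr2 met the count filter through the classical and Cxcr4 through the non-classical cells, where each was higher. Ccr2 was at 550, 662, 961 and 760 CPM in classical and at 68.4, 190, 71.1 and 32.4 in non-classical cells, so that no library overlapped (733 ± 174 against 90.5 ± 68.7; log2 difference 3.02, SE 0.38, adjusted p = 0.000373). Cx3cr1 ran the other way, at 157, 136, 149 and 220 in classical and 388, 338, 419 and 475 in non-classical cells (log2 difference -1.23, SE 0.19, adjusted p = 4.48e-05). CCR2 and CX3CR1 are textbook markers of these opposite states. Cxcr4 went with Cx3cr1: classical cells had 39.2, 19.5, 93.3 and 20.01 and non-classical cells 296, 100.3, 348 and 162 (log2 difference -2.29, SE 0.33, adjusted p = 1.64e-05). Median depth was 4884 UMIs in classical and 2132 in non-classical cells, and its part in these differences was not tested.

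NK cells split into 578 mature and 104 less mature cells. Both testable receptors passed, against 9.72% of all genes tested, and both were higher in the less mature state. Cxcr3 met the count filter only through that state. Ccr2 gave 160, 356, 282 and 287 CPM there and 110, 80.0, 134 and 130 in mature cells (log2 difference, mature minus less mature, -1.34, SE 0.25, adjusted p = 2.28e-06). Cxcr3 gave 183, 217, 75.3 and 86.2 against 17.8, 7.28, 49.0 and 24.7 (-2.56, SE 0.43, adjusted p = 1.32e-07). In the less mature cells both Cured libraries had more Cxcr3 than both Relapsed libraries, on 32 UMIs in all and without a test. Too rare for the filter, Cx3cr1 had 66 UMIs in mature cells and 0 in less mature cells, at least 4.597-fold higher in the mature cells by the floor. S1pr1 was at 7.10 to 26.7 in mature and 37.6 to 68.7 in less mature cells, on 18 and 12 UMIs (ratio 3.19, counting interval 1.40 to 7.0002), and was not tested between libraries.

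CD8 T cells split into 516 naive and 241 antigen-experienced cells of similar depth (medians 3599 and 3730). Of 6 receptors tested 2 passed, against 13.2% of all genes. Those 2, Cxcr3 and Cx3cr1, met the filter only through the antigen-experienced state, where they were higher. Cxcr3 stood at 7.96, 15.8, 11.1 and 12.7 CPM in naive and at 115, 178, 94.2 and 133 in antigen-experienced cells (log2 difference -3.30, SE 0.28, adjusted p = 1.51e-13). Cx3cr1 had 0 UMIs in naive and 40 in antigen-experienced cells, at least 26.5-fold higher by the floor. Ccr7 was at 443, 495, 320 and 496 in naive and at 358, 142, 225 and 153 in antigen-experienced cells. It was higher in the naive cells of every library, but the ranges overlapped and the difference did not pass (1.16, SE 0.38, adjusted p = 0.203). It passed without Cured replicate 1 (1.63, adjusted p = 2.50e-23), without Cured replicate 2 (0.85, adjusted p = 8.95e-06) and without Relapsed replicate 2 (0.99, adjusted p = 0.0435).

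Cxcr6 in naive CD8 T cells was at 31.8, 33.5, 11.1 and 15.3 CPM, against 41.6, 32.9, 65.2 and 91.8 in antigen-experienced cells. The ranges of the states overlapped, and the difference of -0.91 (SE 0.36) did not pass (adjusted p = 0.110). It passed without TMM (-1.09, adjusted p = 0.0459), without Cured replicate 1 (-1.23, adjusted p = 0.0128) and without Cured replicate 2 (-1.33, adjusted p = 0.00229). S1pr1 did not pass, at 97.9 ± 18.0 in naive and 95.7 ± 14.6 in antigen-experienced cells (0.24, SE 0.19, adjusted p = 0.507).

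B cells split into 6681 mature and 1394 transitional cells. None of 5 receptors passed, against 0.739% of all genes, and 1 had an unadjusted p under 0.05. That was Ccr6, at 48.3 ± 13.9 in mature and 39.7 ± 8.78 CPM in transitional cells (0.31, SE 0.13, unadjusted p = 0.0250, adjusted p = 0.532), higher in the mature cells of 3 of the 4 libraries. For Ccr7 the difference was 0.08 (SE 0.05), for Cxcr5 0.09 (SE 0.10), for S1pr1 0.04 (SE 0.11) and for Cxcr4 -0.14 (SE 0.10).

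**Figure D2:**
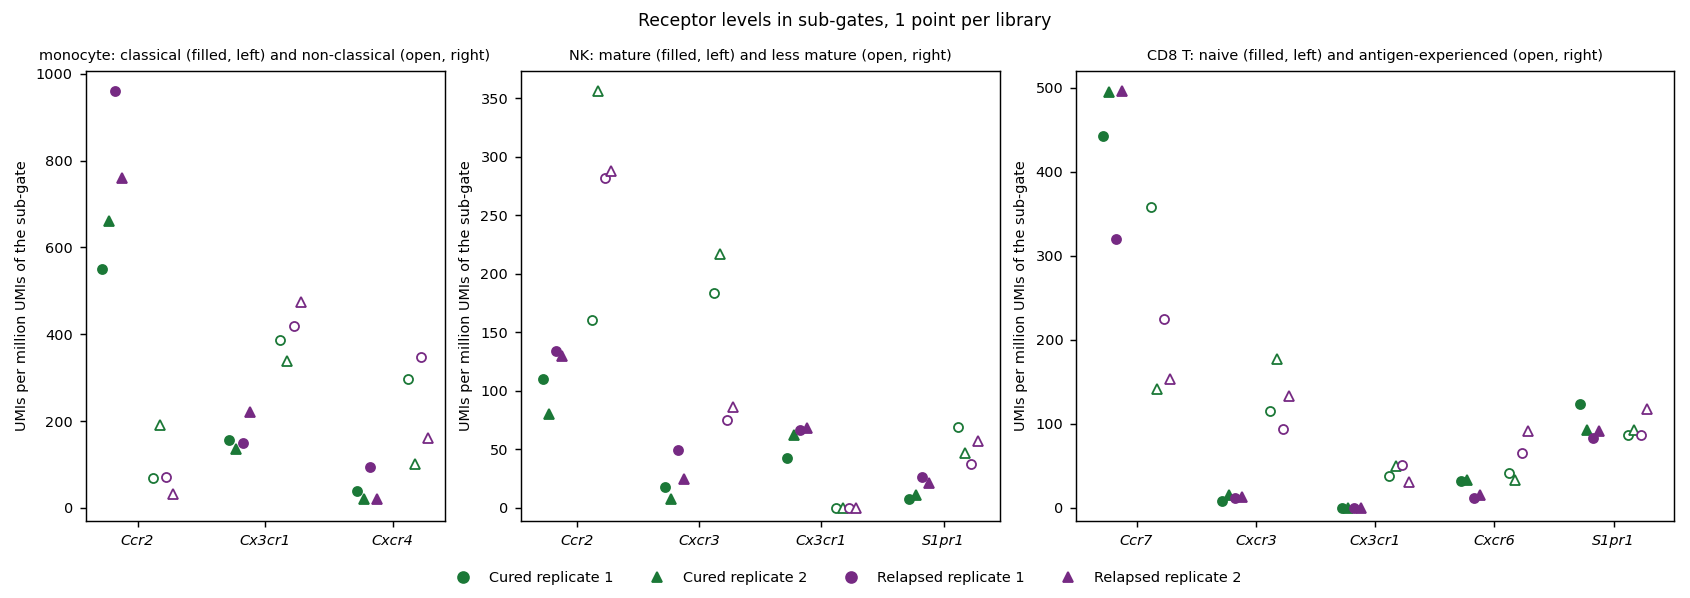
CPM of the sub-gate (y axes, linear, each with its own range) for receptors in monocyte, NK and CD8 T cell states. Each point is a library, filled for the first and open for the second state; green is Cured, purple Relapsed. Ccr2 in monocytes and Cxcr3 in CD8 T cells separate the states in all 4 libraries, whereas S1pr1 in CD8 T cells lies at 83.4 to 124 in both.

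No receptor passed the test between Cured and Relapsed mice. Of 60 combinations of gene and class, 25 met the count filter and 0 passed edgeR's quasi-likelihood test. An unadjusted p under 0.05 was found for 1 of them, and DESeq2 called none. The shares of all genes called were 0.0% in B cells (10207 tested), 0.0% in CD4 T cells (1173), 0.394% in CD8 T cells (5583), 0.0% in NK cells (4655), 0.189% in monocytes (3704) and 0.0% in neutrophils (2884). In the 4 classes at 0, edgeR gave 872 (B), 47 (CD4 T), 304 (NK) and 91 (neutrophil) genes an unadjusted p under 0.05, and DESeq2 called 25 genes in B cells and 0 in the others. The log2 fold changes, positive where Cured was higher, ran from -0.87 to 0.33 with a median of 0.09, and 15 were positive and 10 negative. With 2 pools a group an exact permutation test of 1 gene could not go below p = 0.333.

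**Figure D3:**
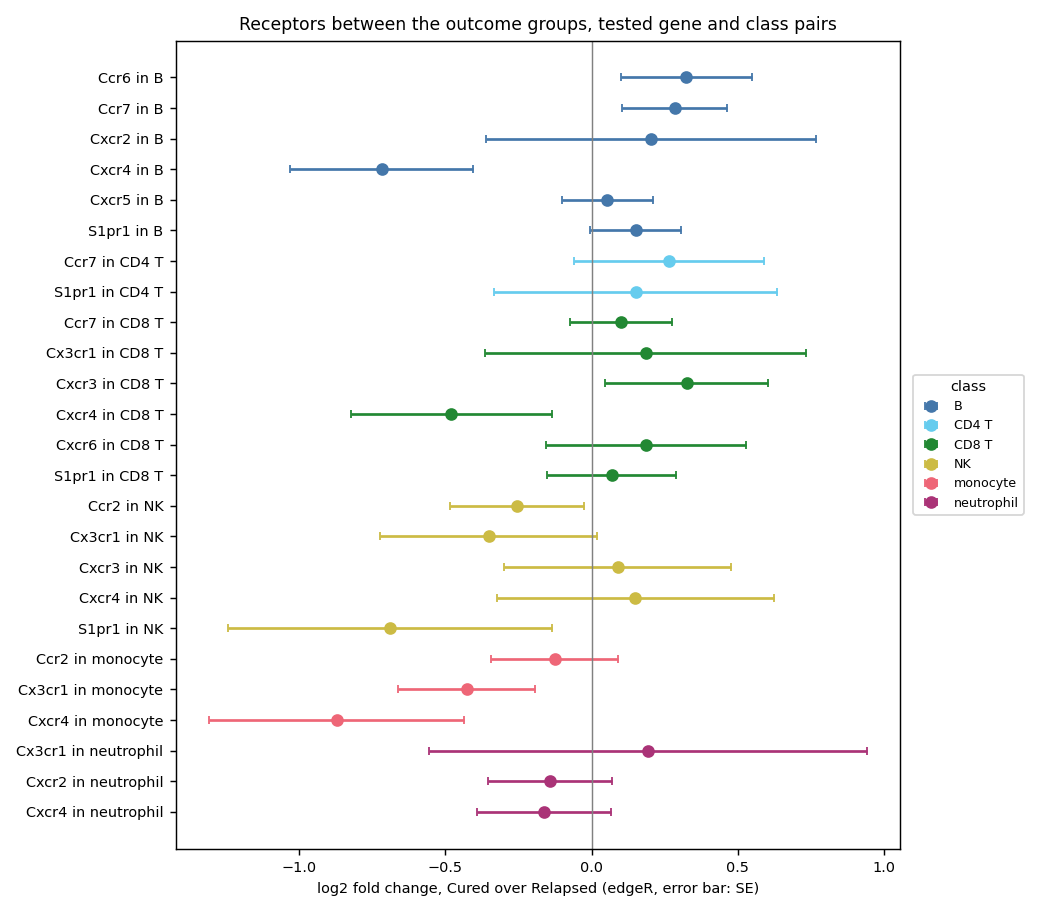
Log2 fold change of Cured over Relapsed (x axis) with its SE for the 25 tested pairs of receptor and class (y axis), coloured by class. The values lie between -0.87 (Cxcr4 in monocytes) and 0.33 (Cxcr3 in CD8 T cells), and the next lowest is Cxcr4 in B cells at -0.72.

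The receptor with the smallest p was Cxcr4 in B cells. It stood at 72.7 and 49.7 CPM in the Cured libraries and at 135 and 66.5 in the Relapsed libraries. Relapsed replicate 1 was the high one, and the groups overlapped. The log2 fold change was -0.72 (SE 0.31, unadjusted p = 0.0473, adjusted p = 0.575). Without Relapsed replicate 1 it was -0.14 (adjusted p = 0.948), while it passed without Relapsed replicate 2 (-1.15, adjusted p = 0.0246), where 17.0% of all B cell genes passed, and without a count filter (-0.69, adjusted p = 0.0265), where 1.14% did. Cxcr4 in monocytes, at 158 and 59.4 against 230 and 93.5, gave -0.87 (SE 0.44, adjusted p = 0.772). That value rose to 0.04 without Cured replicate 2 and passed without Relapsed replicate 2 (-1.48, adjusted p = 0.00189), where 1.08% of all monocyte genes passed.

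For Cxcr4 the same libraries were at the ends in class after class. Of the 5 classes with at least 40 Cxcr4 UMIs, Cured replicate 2 was the lowest in 5 and Relapsed replicate 1 the highest in 4, with Cured replicate 1 the highest in NK cells. By the same count, Ccr2 was highest in Relapsed replicate 1 and lowest in Cured replicate 1 in 3 of 3 classes. Ccr7 and S1pr1 were each lowest in Relapsed replicate 1 in 3 of 3. Cx3cr1, with 3 classes, had a different highest and lowest library in each. At 1000 UMIs per cell the share of B cells with a Cxcr4 UMI was 6.93% and 4.87% in the Cured and 12.8% and 6.57% in the Relapsed libraries. In neutrophils it was 39.0%, 28%, 40% and 37.6%, from the 488 of 1039 cells that reached that depth. Cured replicate 2 had the highest and Relapsed replicate 1 the lowest median depth per cell, and the part of library quality in these orders was not tested. The test of a group effect that differs among classes found 10 of 7101 genes (0.141%) and no receptor (Cxcr4: unadjusted p = 0.05, adjusted p = 1).

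**Figure D4:**
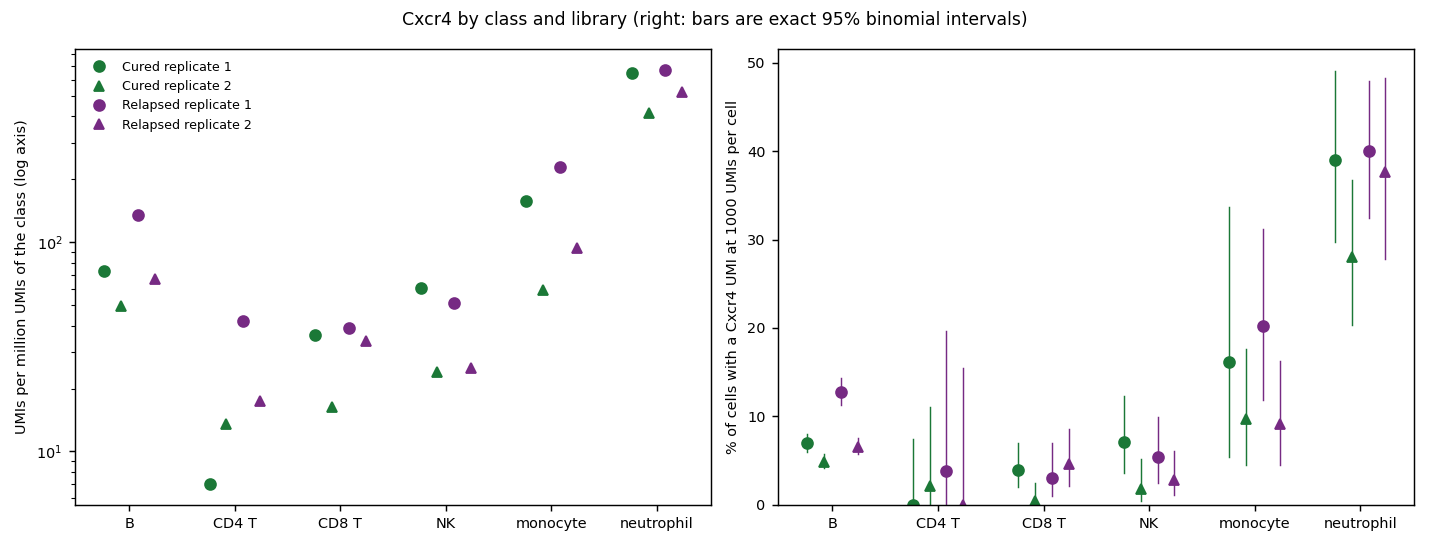
Cxcr4 by class and library: CPM of the class on a log axis (left) and the share of cells with a Cxcr4 UMI at 1000 UMIs per cell (right), with exact binomial 95% intervals as bars; 551 of 1039 neutrophils are below that depth and left out. Within B cells and monocytes Relapsed replicate 1 is the highest point on both scales, at 135 and 230 CPM, and in neutrophils Cured replicate 2 is the lowest.

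The other receptors gave smaller values or more spread. Ccr7 in B cells was at 521 ± 126 among the Cured pools and at 426 ± 34.7 among the Relapsed pools (SD, n = 2), a log2 fold change of 0.28 (SE 0.18, adjusted p = 0.627). It was 0.0045 without Cured replicate 1. Ccr6 in B cells gave 0.32 (SE 0.22, adjusted p = 0.646) and Cxcr3 in CD8 T cells 0.33 (SE 0.28, adjusted p = 0.811), and without Cured replicate 2 these were 0.034 and 0.038. The libraries of the groups did not overlap in 5 of the 25 combinations. Over all genes that share was 45.2% in B cells, 30.8% in CD4 T cells, 38.4% in CD8 T cells, 37.6% in NK cells, 36.4% in monocytes and 29.5% in neutrophils. The 5 were S1pr1 in B cells, where Cured was higher, and Ccr2, Cx3cr1 and S1pr1 in NK cells and Cx3cr1 in monocytes, where Relapsed was higher. For Cx3cr1 in monocytes both Relapsed libraries (297 and 357) lay above both Cured libraries (264 and 235), and the value was -0.43 (SE 0.23, adjusted p = 0.789). S1pr1 in NK cells was also higher in both Relapsed libraries (30.3 and 29.7 against 22.0 and 16.0), on 37 UMIs, at -0.69 (SE 0.55, adjusted p = 0.833). Cxcr2 in neutrophils (-0.14, SE 0.21) and Ccr2 in monocytes (-0.13, SE 0.22) differed by less than the spread between libraries. In CD8 T cells the fit lent every gene the same spread, and in monocytes nearly so. The SEs of these classes thus reflect a gene's own libraries little or not at all. Fewer cells of a state and less RNA per cell cannot be told apart in such sums.

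The rest of the pathway was read from 4 lists, none of whose genes passed between the groups in any class. Of 15 other chemokine receptors, 20 chemokines, 12 genes of S1P handling and 24 genes of receptor signalling, 6, 22, 25 and 118 combinations of gene and class could be tested. At an unadjusted p under 0.05 there were 0, 2, 1 and 20, beside 7.25% of the tests of all genes. Of the 20, 6 of 24 were in B cells (8.54% of all genes), 8 of 20 in CD8 T cells (8.62%), 5 of 21 in NK cells (6.53%) and 1 of 21 in monocytes (6.72%). The median log2 fold change of the signalling list lay between -0.13 (B cells) and 0.06 (CD8 T cells), beside medians of -0.01 to 0.00 over all genes in the 6 classes. Grk2 and Rap1b were chosen after their values were seen. Grk2, the kinase that desensitises activated receptors, had the smallest p of that list in B and NK cells. In CPM after TMM it was at 78.6 ± 4.72 in Cured and 138 ± 51.0 in Relapsed B cells (-0.80, SE 0.23, adjusted p = 0.575) and at 52.4 ± 7.60 and 148 ± 75.4 in NK cells (-1.45, SE 0.36, adjusted p = 0.503). Rap1b, a small GTPase of integrin activation that acts below these receptors, was at 263 ± 14.6 and 167 ± 13.3 in CD8 T cells (0.65, SE 0.18, adjusted p = 0.0729).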

How the data were processed

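Deposited values are raw UMI counts per gene and cell barcode in 4 libraries, which the authors made with Cell Ranger 3.1.0 and mm10, as the headers and the submitters' processing notes name them. The sources used here name no annotation release. The 10 receptors and the gene lists were chosen with earlier results of these data known. Per-cell gates used 2 T cell markers or 3 markers of another lineage. Cells that reached the gates of several lineages (376) or of none (95), 343 other T cells, 8 dendritic cells and 133 B-lineage cells with a UMI of Cdkn2a, GFP_1 or BCR_ABL_1 were left out of the classes; no doublet caller was run. UMIs were summed (and scaled to CPM) per library and class (per state: at least 10 cells in every library) and tested over all genes with edgeR 4.0.16 (TMM, filterByExpr, robust quasi-likelihood) on R 4.3.3, with Benjamini-Hochberg adjustment at 0.05. DESeq2 1.42.0, no TMM, RLE factors, no filter, a replicate block, other gates, thinning (seed 1) and each library left out were the alternatives. Every adjusted p is from edgeR unless DESeq2 is named. Scripts were tested on simulated data. The smallest library limits precision: 23 to 51 CD4 T cells each. Named genes were all 10 receptors and, for each, the 3 genes most like it, of a mean of at least 20 CPM in their top class. Grk2 and Rap1b were named after their values were seen. Coordinates come from GENCODE M21 (GRCm38), promoter windows from RefSeq. Intervals of shares are exact binomial at 95%; limits for 0 counts are 3 over the number of cells.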

Additional observations from a re-analysis of the deposited data

How the results depend on the processing

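None of the 25 receptor tests between Cured and Relapsed passed under DESeq2, no TMM, RLE factors, the replicate block, other gates, the 5% mitochondrial limit or thinning. Cxcr4 in B cells passed without a count filter. Of 313 alternative values 280 kept sign and call, 3 newly passed and 30 changed sign. The cause of each change was not tested. With mixed cells kept, Cxcr2 in B cells turned to -0.51, Cxcr4 in NK cells to -0.048 and Ccr2 in monocytes to 0.035. With the stricter gate Cx3cr1 and S1pr1 in CD8 T cells turned to -0.22 and -0.014. Cxcr3 in NK cells turned to -0.0048 at the 5% limit, Cxcr4 in NK cells to -0.018 when thinned and Cx3cr1 in neutrophils to -0.0042 with DESeq2.

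Leaving out a library, which leaves 1 sample in its group and takes its spread from the others, gave these ranges where a sign turned: Cxcr2 -0.40 to 0.66 and Cxcr5 -0.049 to 0.15 in B cells, and Ccr7 -0.26 to 1.08 and S1pr1 -0.27 to 0.74 in CD4 T cells. In CD8 T cells they were -0.055 to 0.31 (Ccr7), -0.036 to 0.53 (Cxcr6), -0.16 to 0.57 (Cx3cr1) and -0.068 to 0.20 (S1pr1). In NK cells they were -0.25 to 0.43 (Cxcr3) and -0.66 to 0.70 (Cxcr4), and in monocytes -0.32 to 0.085 (Ccr2) and -1.48 to 0.038 (Cxcr4). In neutrophils they were -0.33 to 0.090 (Cxcr2), -0.53 to 0.14 (Cxcr4) and -1.69 to 1.05 (Cx3cr1). Between CD4 and CD8 T cells Cxcr3 ran from -0.35 to 0.19 and Cxcr6 from -0.070 to 0.58, while S1pr1 turned to 0.21 without TMM and to 0.023 with DESeq2. S1pr1 in mature over transitional B cells ran from -0.043 to 0.12, and Cxcr4 in naive over antigen-experienced CD8 T cells from -0.50 to 0.18.

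Counts of all genes called between the groups moved more. In B cells 0 became 25 with DESeq2, 178 without a filter, 1 when thinned and 7 to 1783 with a library left out. In CD4 T cells 0 became 4 without a filter, 3 with the stricter gate and 0 to 21 with a library left out. In CD8 T cells 22 became 3 with DESeq2, 2 without TMM, 10 when thinned and 0 to 233 with a library left out. In NK cells 0 became 9 without a filter, 2 with mixed cells and 0 to 204 with a library left out. In monocytes 7 became 2 with DESeq2, 3 with mixed cells, 2 when thinned and 6 to 43 with a library left out. In neutrophils 0 became 1 without a filter, 1 with mixed cells and 1 to 6 with a library left out. Genes whose group effect differed among classes numbered 4 with the stricter gate, 2 when thinned and 7 to 41 with a library left out, against 10. The count without Relapsed replicate 2 was the highest in B, CD4 T, CD8 T and NK cells and monocytes, and the 0 in CD8 T cells came without Cured replicate 2.

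The labels give both groups replicates 1 and 2 but no shared litter or day. Deviations of same-numbered libraries correlated at -0.05 to 0.07 across the classes. With 1 library of each number per group, this cannot show whether they shared a litter or day. With the replicate block the counts were 48 in B, 2 in CD4 T, 10 in NK cells and 13 in monocytes, no receptor passed, and Cx3cr1 in neutrophils turned to -0.16. Between classes, 86 receptor tests passed with DESeq2, 92 without TMM, 95 with the stricter gate, 74 when thinned and 90 to 92 with a library left out, against 94. In the state comparisons 7 to 9 passed with a library left out, against 7. CD4 T cells, 23 to 51 a library, limit what depth can show.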

Other observations

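The B-lineage cells with a UMI of Cdkn2a, GFP_1 or BCR_ABL_1 were kept apart from the B cells. They were 133 cells, 3 and 31 in the Cured and 32 and 67 in the Relapsed libraries, with a median of 4841 UMIs. Ccr7 was at 207 CPM over all of them and at 209, 188 and 210 in the 3 libraries with over 30 such cells, below every B cell library. At 1000 UMIs per cell 12.8% of them had a Ccr7 UMI, against 35.5% of the B cells. Cxcr5 (66.3) and S1pr1 (76.3) were near the B cell means. Ccr6 was at 18.7 on 13 UMIs and Cxcr4 at 40.3 on 28 UMIs. Ccr2, Cxcr3, Cxcr6 and Cx3cr1 had 0 UMIs. These values were not tested, since the gate was read from transcripts that deeper cells show more often.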
